A study of Homo sapiens with 8 samples.

Results

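The loci described here are the ribosomal DNA (rDNA) repeats and the contigs of the human genome that have no fixed place in a chromosome, measured in RNA of HAP1 nuclei. These cells come from the leukaemia line KBM-7 and carry a nearly haploid human genome. Members were taken by position alone. They are loci on contigs whose names begin with chrUn_ or end in _random, or inside the rDNA block on the short arm of chromosome 21, where the first listed locus starts at 8197620 and the last ends at 8454792 (hg38). A short-read locus had to be above 0 in 3 columns and a long-read transcript in 1. This gave 98 of the 62635 short-read loci and 218 of the 301771 long-read transcripts. Of the short-read loci, 39 lay in rDNA repeats and 59 on 22 other contigs. Of the long-read transcripts, 90 lay in rDNA repeats and 128 on other contigs. The short-read threshold left out 1 contig locus, MSTRG.34511, which had a count of 14.0 in 1 chromatin library, 22.0 in 1 nucleoplasm library and 0 in the remaining 4, while 4 members were above 0 in exactly 3 columns.

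All 8 libraries came from untreated HAP1 cells of a single line, so that the groups differ only in nuclear fraction and in sequencing method. Nuclei were split with a urea and detergent buffer into chromatin, the pellet that holds DNA and the RNA bound to it, and nucleoplasm, the soluble part. Synthetic ERCC RNAs went into every fraction as a reference, and ribosomal RNA was depleted. Fractions were read as directional short reads, with 3 chromatin and 3 nucleoplasm libraries that came from 3 independent cultures, and chromatin RNA with added poly(A) tails was also read as nanopore direct cDNA in 2 libraries. The fraction labels held for MALAT1, a nuclear retained RNA, which was higher in chromatin (log2 fold change 3.09, SE 0.08), and for GAPDH, a glycolytic enzyme gene, which was lower (-2.35, SE 0.08), both with an adjusted p below the threshold in limma.

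Ribosomal RNA is made in the nucleolus by RNA polymerase I as a long precursor, 45S. In order, the precursor holds a 5' external transcribed spacer (5'ETS), 18S, a first internal spacer (ITS1), 5.8S, a second internal spacer (ITS2), 28S and a 3' external spacer (3'ETS). The spacers are cut out and degraded during processing, often while the precursor is still near its gene, whereas 18S, 5.8S and 28S are kept and leave the nucleus inside ribosomal subunits. Repeats lie in tandem, separated by intergenic spacers, at the short arms of the acrocentric chromosomes. Spacer RNA therefore marks the precursor, and 28S or 5.8S RNA is precursor and mature RNA together. Because mature rRNA was depleted from these libraries, its levels are what the depletion left.

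In hg38 the 45S unit was found 8 times by sequence, as 5 whole copies and 3 partial ones, all on the plus strand. Whole copies were RNA45SN2 at chr21:8205988-8219302, RNA45SN3 at chr21:8389035-8402343, RNA45SN1 at chr21:8433222-8446572, RNA45SN4 at chr22_KI270733v1_random:122273-135645 and RNA45SN5 at chrUn_GL000220v1:105424-118780. Partial copies were chr21:8250197-8260971, chr22_KI270733v1_random:167355-179772 and chrUn_GL000220v1:149396-161802. Copies were 98.8% to 99.5% identical to RNA45SN2, so a read of 50 bases often matches several, and the counting shares or assigns such reads without a way to tell the copies apart. For that reason sums over copies are given beside single loci. In RNA45SN2 the 5'ETS spans 3643 bases, 18S 1869, ITS1 1071, 5.8S 157, ITS2 1160, 28S 5054 and the 3'ETS 361.

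Sequences that anchor the results are shown from hg38. The start of RNA45SN2 is shown because long-read transcripts began at its first base, with the first 50 transcribed bases in capitals (chr21:8205838-8206037, plus strand).
RNA45SN2 start: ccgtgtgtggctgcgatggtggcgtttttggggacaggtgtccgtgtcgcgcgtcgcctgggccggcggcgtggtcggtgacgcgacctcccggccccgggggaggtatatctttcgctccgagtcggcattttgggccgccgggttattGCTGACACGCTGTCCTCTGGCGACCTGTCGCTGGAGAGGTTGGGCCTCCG
This window of 200 bases was the same, base for base, at all 8 unit starts. The 5.8S RNA is kept after processing and did not share the 5'ETS pattern (chr21:8212571-8212727, plus strand).
5.8S: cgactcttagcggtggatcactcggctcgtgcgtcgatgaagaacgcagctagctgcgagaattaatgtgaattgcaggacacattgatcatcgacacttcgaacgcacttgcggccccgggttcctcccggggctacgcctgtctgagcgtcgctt
The end of RNA45SN2 is shown because long-read transcripts ended past it, with capitals marking GGTCGACC, letters of the Sal box that the terminator protein TTF1 binds (chr21:8219283-8219462, plus strand, where the unit ends at base 20 of the window).
RNA45SN2 end: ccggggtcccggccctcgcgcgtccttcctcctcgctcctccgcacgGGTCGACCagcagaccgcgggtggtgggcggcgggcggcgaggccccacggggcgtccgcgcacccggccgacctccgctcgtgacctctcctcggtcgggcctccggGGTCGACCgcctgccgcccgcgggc
The motif GGTCGACC reads the same on both strands. It started 28 bases past the end of each of the 5 whole units and occurred 7 to 11 times in the 2000 bases that follow them. The 3 partial units break off inside 28S. Whether the build holds sequence past their ends was not checked, so the 0 motifs found there cannot be read as absence. The motif also occurred once upstream of every unit start, 629 or 648 bases before it, and once inside every unit. Among 35116 RefSeq promoters of 300 bases, 0.125% held it.

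The 6 short-read libraries held 38895027 to 79523938 raw counts, recovered from the normalised values, fewer in each chromatin library than in any nucleoplasm library. The authors derived raw counts from StringTie abundance, so a raw count of 1 is an estimate and not surely 1 observed read. Facts of single libraries bear on the values below. Chromatin replicate 1 held 7.91% of its counts in rDNA loci, against 2.51% and 2.52% in chromatin replicates 2 and 3 and 1.88% to 3.09% in nucleoplasm. Chromatin replicate 3 held nearly all counts of 1 antisense locus, MSTRG.21007. Levels are normalised read counts, which compare parts of a library. Setting the libraries to the same ERCC total instead moved the median log2 fold change of all 26066 genes tested from -0.02 to -1.33, and results that turn with that scaling are given beside it.

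The 5'ETS was high in chromatin. No sense locus belonged to ITS1, ITS2 or the 3'ETS alone, so the other transcribed spacers were not measured separately. The main 5'ETS locus, MSTRG.20995 (chr21:8389538-8391634, 2097 bases, starting 504 bases into RNA45SN3), had normalised read counts of 123071, 71304 and 85781 in chromatin and 2882, 3400 and 3496 in nucleoplasm. Every chromatin library lay above every nucleoplasm library, by a log2 fold change of 4.81 (SE 0.18, adjusted p = 3.3e-08 in limma). Replicate by replicate, the log2 ratio was 5.42, 4.39 and 4.62. Under the same ERCC total its log2 fold change was 3.48.

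A shorter 5'ETS locus of RNA45SN2, MSTRG.20982 of 61 bases, had counts of 5261, 2694 and 3331 in chromatin and 83.4, 103 and 101 in nucleoplasm. It was under the span minimum of the main test and was called where that minimum was dropped, with a log2 fold change of 5.23 (SE 0.22). Summed over the 3 sense loci of the 5'ETS, the level was 100307 ± 29120 (SD, n = 3) in chromatin and 3485 ± 356 in nucleoplasm, a 28.1-fold difference of the log means.

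Mature parts did not show that gap. The 28S locus, MSTRG.20985 (chr21:8213635-8220687), covers all 5054 bases of 28S, which are 71.7% of its span, with 253 bases of ITS2, the 3'ETS and 1385 bases past the unit end. It had counts of 321247, 81380 and 75095 in chromatin and 249409, 173957 and 194335 in nucleoplasm. Its groups overlapped, with chromatin replicate 1 highest and chromatin replicates 2 and 3 lowest of all 6 libraries, and its log2 fold change of -0.70 did not pass the test (SE 0.49, adjusted p = 0.21 in limma). Without chromatin replicate 1 it was -1.38 and passed (adjusted p = 8.4e-05 in limma). Under the same ERCC total it was -2.02.

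The 5.8S loci MSTRG.20984 and MSTRG.20990 lie in different repeats and had the same value in every library. Those values were 2129, 383 and 418 in chromatin and 1192, 943 and 1018 in nucleoplasm. They again put chromatin replicate 1 highest and the other chromatin libraries lowest. Summed, their log2 ratio was -0.58, with replicate ratios of 0.84, -1.30 and -1.28.

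Most rDNA counts fell in 3 wide loci that span several parts and repeats. MSTRG.22148 on chr22_KI270733v1_random (119998-179772) had counts of 1399090, 416869 and 428437 in chromatin and 734535, 337199 and 370251 in nucleoplasm. MSTRG.20996 on chromosome 21 (8392313-8447162) had 1215190, 339959 and 340353 against 615570, 418183 and 433038. MSTRG.34565 on chrUn_GL000220v1 (101727-161802) had 877928, 254152 and 264142 against 446873, 302442 and 335186. In all 3 the fractions overlapped and chromatin replicate 1 was highest. Their log2 fold changes were 0.48 (SE 0.48), 0.11 (SE 0.45) and 0.13 (SE 0.44), and none passed the test. MSTRG.22148 was higher in chromatin in all 3 pairs of the same number, with log2 ratios of 0.93, 0.31 and 0.21. Without chromatin replicate 1 the log2 fold changes were -0.09 for MSTRG.22148, -0.50 for MSTRG.20996 and -0.46 for MSTRG.34565. The last 2 loci then passed the test as lower in chromatin (adjusted p = 0.028 and 0.032 in limma). All 3 turned to lower in chromatin under the same ERCC total, at -0.84, -1.21 and -1.20. The wide loci hold 5'ETS, 18S and 28S sequence together, so a difference between those parts cannot be read from them.

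**Figure D1:**
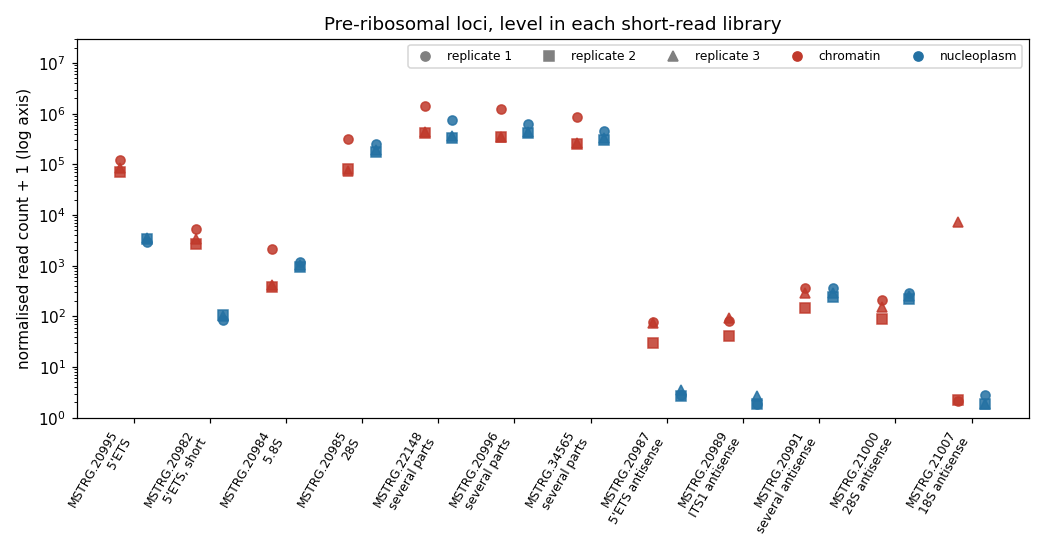
Normalised read count plus 1 (log axis) of 12 rDNA loci in each short-read library, with chromatin in red, nucleoplasm in blue and a symbol for each replicate number. The 5'ETS loci and the antisense loci of the 5'ETS and ITS1 separate the fractions, whereas 28S, 5.8S and the wide loci overlap and put chromatin replicate 1 highest.

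A ratio within a library does not depend on its scaling. Per kilobase of span, the 5'ETS locus MSTRG.20995 stood at 1.29, 2.95 and 3.84 times the 28S locus MSTRG.20985 in the chromatin libraries. In nucleoplasm it stood at 0.0389, 0.0657 and 0.0605 times that locus. Counted over the 28S bases of that locus alone, with all its reads, the ratios would be 0.923, 2.11 and 2.75 in chromatin and 0.0278 to 0.0471 in nucleoplasm. Whether the 5'ETS level exceeds that of 28S in chromatin cannot be read from these ratios. Besides the span, the loci compared lie in different repeats, the wide loci hold further 28S sequence, and mature rRNA was depleted. With either span the lowest chromatin ratio was above the highest nucleoplasm ratio, and the groups differed 45.5-fold (exact permutation test, 2-sided, p = 0.1, the smallest that 3 libraries against 3 can give). Against 5.8S the ratio was 4.22 to 15.0 in chromatin and 0.176 to 0.263 in nucleoplasm, a 41.9-fold difference with the same p. Chromatin replicate 1 had the lowest ratio of its fraction both times, although its 5'ETS, 28S and 5.8S levels were each the highest.

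The intergenic spacer between repeats was covered by 16 sense loci, all too low or too short for the main test. Their summed count was 64.1, 57.6 and 98.8 in chromatin and 15.8, 12.1 and 11.8 in nucleoplasm, so that the fractions did not overlap (log2 ratio 2.45). The 4 copies of MIR6724, a microRNA gene upstream of the unit start, had the same values in every repeat. These were 5.82 to 13.2 in chromatin and 0.845 to 1.76 in nucleoplasm. Here 0.845 to 1.20 is the value of a raw count of 1, so each copy rested on very low raw counts. In all, 19 rDNA loci fell into 8 sets with the same values in every library, and within a set the loci cannot count as separate measurements.

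Of the 12 antisense loci, 4 were tested. MSTRG.20989, opposite ITS1 of the partial copy on chromosome 21 (8255639-8256618), had counts of 79.2, 39.6 and 91.1 in chromatin and 0.878, 0.861 and 1.69 in nucleoplasm. MSTRG.20987, opposite the 5'ETS (8253309-8253737), had 75.7, 28.8 and 73.5 in chromatin and 1.76, 1.72 and 2.53 in nucleoplasm. Both rose in chromatin, with log2 fold changes of 4.99 (SE 0.35, adjusted p = 1.5e-06 in limma) and 4.22 (SE 0.38, adjusted p = 8.0e-06 in limma). Nucleoplasm held a raw count of no more than 3 of either in any library. Both could therefore enter the test only through chromatin.

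Neither of the other tested antisense loci rose. MSTRG.21000, opposite 28S (8398968-8400252), had 208, 88.9 and 153 in chromatin and 283, 215 and 254 in nucleoplasm. It was the only rDNA locus that was lower in chromatin past the adjusted p, at -0.81 (SE 0.27, adjusted p = 0.020 in limma), short of the fold minimum. MSTRG.20991, opposite several parts, had 363, 148 and 283 in chromatin against 362, 235 and 284 and did not pass. MSTRG.21007, opposite 18S (8437629-8438551), had 7277 in chromatin replicate 3 and 0.845 to 1.76 in the other 5 libraries. MSTRG.20997, also opposite the 5'ETS, had a raw count of 1 in every library. Because 1 library held MSTRG.21007, no fold change is given. Without that locus, antisense RNA made up 0.0191% to 0.0518% of rDNA counts in the 6 libraries. Antisense counts that small, opposite parts as abundant as 28S, were not tested for reads placed on the wrong strand.

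In the test across all genes, 11 of the 39 rDNA loci had enough counts and span, and the 28 others entered no test. A locus was called when its adjusted p was under 0.05 and it differed more than 4-fold. Called in chromatin were 3 of the 11 (27.3%), namely the 5'ETS locus and both antisense spacer loci, and called in nucleoplasm were 0. The antisense spacer loci could enter the test only through chromatin. Of all genes tested, 21.2% were called in chromatin and 8.47% in nucleoplasm, so the share of the 11 was near that background. Dropping the span minimum, which tested 15 rDNA loci, gave 5 calls in chromatin, against 21.4% of all genes. The median log2 fold change of the 11 was 0.12 and turned to -1.20 under the same ERCC total and to -0.22 without chromatin replicate 1.

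**Figure D2:**
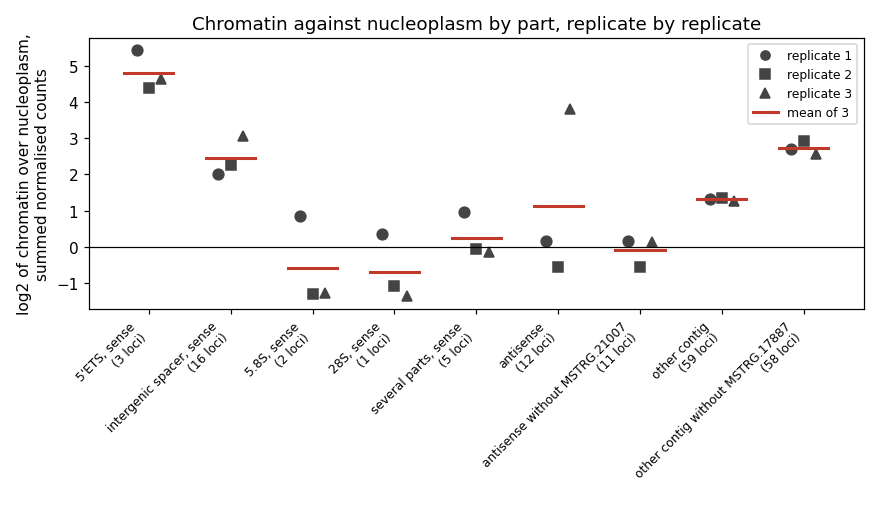
Log2 of chromatin over nucleoplasm for counts summed by part of the rDNA repeat and for the other contigs, with 1 symbol for each replicate number and a red line at their mean. The 5'ETS lies at 4.39 to 5.43 and the intergenic spacer at 2.02 to 3.06 in all 3 replicates, 5.8S and 28S are above 0 in replicate 1 alone, the antisense sum is set by 1 locus in replicate 3, and the other contigs lie between 1.27 and 1.34, or between 2.56 and 2.91 without the locus MSTRG.17887.

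The other contigs varied less between replicates in their sum. Together their 59 loci had 124952, 128702 and 127377 normalised counts in chromatin and 49695, 50829 and 52790 in nucleoplasm, or 0.264% ± 0.0130 (SD, n = 3) of a chromatin library and 0.0769% ± 0.00192 of a nucleoplasm library. The log2 ratio of the sums was 1.33, 1.34 and 1.27 in the 3 replicates, an SD of 0.04, where all rDNA loci together had an SD of 0.61. A single locus weighed heavily in that sum, since MSTRG.17887, described below, held 41.2% of it in chromatin and 77.9% in nucleoplasm. Over the remaining 58 loci, an alternative chosen after seeing the data, the sums were 74882, 82555 and 66735 in chromatin and 11626, 10969 and 11318 in nucleoplasm, with log2 ratios of 2.69, 2.91 and 2.56 (SD 0.18). With the same ERCC total the log2 ratio was -0.01 for all 59 loci and 1.40 without MSTRG.17887, while the median of all genes was then -1.33.

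Of the 59 contig loci, 56 were tested. In chromatin 27 were called, 48.2% of those tested against 21.2% of all genes, and in nucleoplasm 0 were called against 8.47% of all genes. At an adjusted p under 0.05 and any fold, 36 were higher in chromatin and 17 in nucleoplasm, against 44.2% and 45.2% of all genes, and 3 passed in neither direction. The median log2 fold change was 1.59, against -0.02 for all genes tested. Under the same ERCC total 14 were called in each fraction, where the calls among all genes were 11.9% (chromatin) and 34.4% (nucleoplasm), and the median was 0.56, which is 1.89 above the median of all genes in that scaling. Several called loci, among them MSTRG.10065, MSTRG.10067, MSTRG.17881 and MSTRG.34567, stayed under the count minimum in every nucleoplasm library. They could enter the test only through chromatin, and their number was not counted. The 48.2% and the median of 1.59 include them. With a mean count of at least 50 required, 15 of 29 tested contig loci were called in chromatin. The share of all genes was then 15.5%, and the contig median was 2.11.

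By contig, the values ran in both directions. On 8 contigs every tested locus was called in chromatin, among them chrUn_GL000195v1 with 3 loci at 3.65 to 4.87, chr14_GL000009v2_random with 4 at 3.15 to 3.98, chr3_GL000221v1_random with 3 at 2.98 to 3.42 and chr17_GL000205v2_random with 3 at 3.04 to 5.00. Of the 8, chr14_GL000194v1_random, chr1_KI270706v1_random and chrUn_GL000218v1 had 1 tested locus each. Some of these loci could enter the test only through chromatin, among them MSTRG.10065 and MSTRG.10067 on chr14_GL000009v2_random and MSTRG.17881 on chr1_KI270706v1_random. On chr22_KI270731v1_random all 4 loci were lower in chromatin, at -1.93 to -0.76, and on chr15_KI270727v1_random all 3, at -1.63 to -1.45. On chr22_KI270734v1_random 7 loci ran from -1.93 to 0.50. Loci of a contig can be pieces of the same transcript, so they are not separate measurements of a contig.

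**Figure D3:**
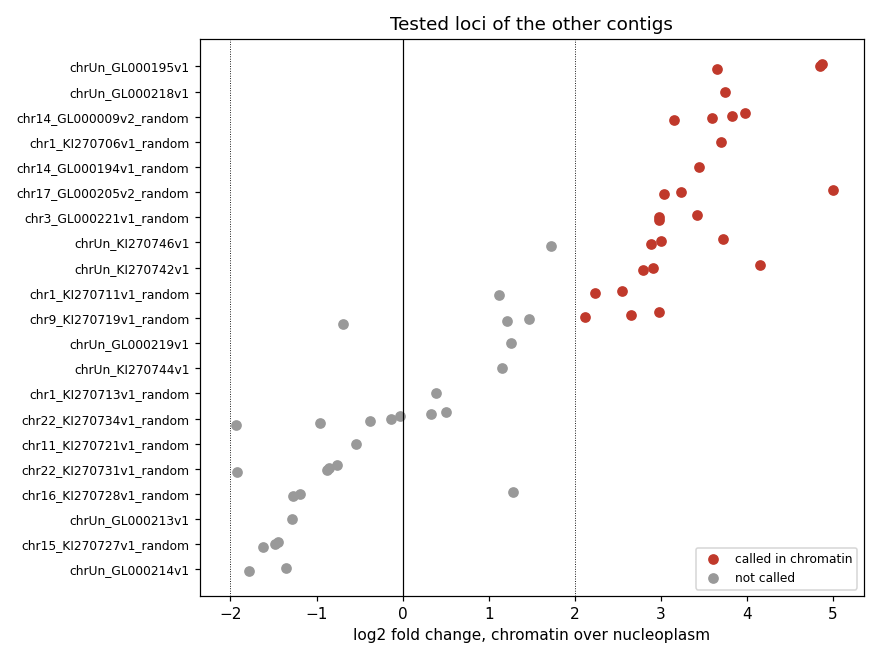
Log2 fold change (chromatin over nucleoplasm) of the 56 tested loci of the other contigs, 1 point per locus and 1 line per contig, ordered by the contig's median. Red points were called in chromatin, dotted lines mark the 4-fold limits, and no point lies below the lower limit.

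The most abundant contig locus was MSTRG.17887 on chr1_KI270713v1_random (17693-22163, minus strand). Its counts were 50070, 46147 and 60642 in chromatin and 38069, 39860 and 41472 in nucleoplasm. The fractions did not overlap, and the log2 fold change was 0.38 (SE 0.10, adjusted p = 0.0050 in limma), which turned to -0.94 under the same ERCC total. This locus holds a copy of U1, the small nuclear RNA that pairs with the 5' splice site of introns. The copy is shown because it equals RNU1-1 of chromosome 1 (16514122-16514285) in all 164 bases, so reads of either gene match both (chr1_KI270713v1_random:21861-22024, minus strand).
U1 copy: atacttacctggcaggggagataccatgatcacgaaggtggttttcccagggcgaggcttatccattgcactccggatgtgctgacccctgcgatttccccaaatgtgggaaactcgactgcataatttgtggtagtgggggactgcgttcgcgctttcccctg

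The next most abundant loci were long ones without a name in the gene set used here, which holds no gene on these contigs. MSTRG.34559 on chrUn_GL000195v1 (138003-175636) had counts of 19224, 21068 and 17099 in chromatin and 1577, 1528 and 1464 in nucleoplasm. MSTRG.34558 on the same contig (55403-86669, opposite strand) had 17470, 18846 and 14851 against 598, 618 and 525. MSTRG.34557, next to it (19321-55136), had 3003, 3651 and 2573 against 114, 101 and 99.7. All 3 rose in chromatin, by log2 fold changes of 3.65, 4.87 and 4.85. MSTRG.34559 was 98.9% identical to a placed stretch of chromosome 21 that holds the long noncoding RNA gene ENSG00000278903, and MSTRG.15271 on chr17_GL000205v2_random was 98.6% identical to the same gene's stretch. MSTRG.15271 had 6597, 7184 and 5739 in chromatin and 713, 714 and 640 in nucleoplasm, which is 3.23 on the log2 scale.

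Another group resembled TEKT4P2, a pseudogene of a tektin, a protein of cilia and sperm tails. MSTRG.10069 on chr14_GL000194v1_random (56129-115062) had counts of 8104, 9786 and 7038 in chromatin and 812, 740 and 722 in nucleoplasm. MSTRG.34563 on chrUn_GL000218v1 had 4666, 5501 and 4210 against 366, 364 and 335. MSTRG.10068 on chr14_GL000009v2_random had 549, 603 and 465 against 35.1, 32.7 and 31.3. These 3 rose in chromatin by 3.44, 3.74 and 3.98 on the log2 scale. Among the 8 most abundant contig loci, the smallest change outside U1 was that of MSTRG.34570 on chrUn_KI270744v1, which resembled the zinc finger gene ZNF595 over 67.7% of its span. It had 4539, 4759 and 4544 in chromatin and 2178, 1923 and 2127 in nucleoplasm, or 1.15 on the log2 scale, which was -0.17 under the same ERCC total.

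Of the called contig loci, the 5 with the largest fitted log2 fold changes were MSTRG.15273, MSTRG.34558, MSTRG.34557, MSTRG.34567 and MSTRG.10068, though the place of MSTRG.34567 rests on the pseudocount. MSTRG.15273 on chr17_GL000205v2_random (184116-185589) had counts of 425, 500 and 362 in chromatin and 12.3, 13.8 and 11.0 in nucleoplasm, and its log2 fold change was 5.00 (SE 0.15, adjusted p = 1.5e-08 in limma). MSTRG.34567 on chrUn_KI270742v1 had 14.0, 25.2 and 13.2 in chromatin and no read in any nucleoplasm library, so that it could enter the test only through chromatin. Set against a floor equal to a raw count of 3 in each nucleoplasm library, after normalisation, its chromatin mean was at least 6.76-fold higher.

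Among loci lower in chromatin, MSTRG.22150 and MSTRG.22147 changed most, at -1.93 each, and neither reached the fold minimum. They were picked out after their values were seen. MSTRG.22147 on chr22_KI270731v1_random had 27.9, 21.6 and 28.5 in chromatin and 104, 96.4 and 103 in nucleoplasm. It resembled USP18, whose product removes the ubiquitin-like protein ISG15, with 99.8% identity. MSTRG.6275 on chr11_KI270721v1_random, which resembled MRPL23, a gene of the mitochondrial ribosome, had 806, 722 and 794 in chromatin against 1123, 1072 and 1189, at -0.54 (SE 0.06).

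Nearly every contig locus had a match at a placed site, and most matches were close. Of the 59, 55 matched one, 41 of them with at least 98% identity and 10 with full identity over the match, and the median identity was 98.9%. The lowest identities were those of MSTRG.24277 (77.4%), MSTRG.34568 (77.6%) and MSTRG.34558 (83.2%), which are among the pairs below. Where the match held a protein-coding gene in the same orientation, loci were called in chromatin in 4 of 14 tested cases, with a median log2 fold change of 0.81. Loci that matched only noncoding genes or pseudogenes were called in 16 of 29, with a median of 2.98. Loci with no gene at the match were called in 7 of 13, with a median of 2.11. Of all genes tested, 21.2% were called in chromatin. The groups include loci that could enter the test only through chromatin, such as MSTRG.10065 and MSTRG.10067. Several loci matched the same gene, such as PRODH, KMT2C or NBPF1, so they are not separate cases. Those groups were formed after the values were seen and were not tested against each other.

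In 49 pairs both the contig locus and the placed locus were tested, and they had the same direction in 42. Across the pairs Pearson's r of the log2 fold changes was 0.72 and Spearman's rho 0.71, given as a description, since the pairs rest on 36 distinct placed loci and relatives can share reads. For MSTRG.22147 the value was -1.93 at both sites. For MSTRG.34559 it was 3.65 on the contig and 3.07 at the placed site. TEKT4P2 was the clearest exception, at -0.46 on chromosome 21 against 3.44 to 3.98 for the contig loci like it. MSTRG.34506 (2.98 against -0.67 at the placed site) and MSTRG.10067 (3.60 against 0.28) also departed widely.

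**Figure D4:**
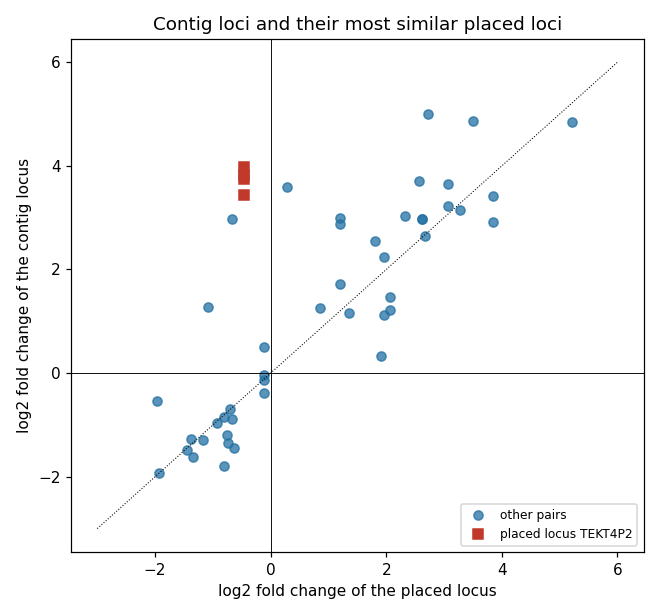
Log2 fold change (chromatin over nucleoplasm) of 49 contig loci against that of the placed locus most similar in sequence, with a dotted line of equality. The direction was the same in 42 of 49 pairs, though a number of points lie well off the line. The red squares are contig loci whose placed relative is TEKT4P2, at -0.46.

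Genes whose products make and process the precursor were measured in the same libraries. Of 24 tested genes of RNA polymerase I transcription, 0 passed both limits in chromatin and 4 in nucleoplasm, against 21.2% and 8.47% of all genes. At any fold 5 were higher in chromatin, 18 in nucleoplasm and 1 passed in neither direction. The called genes were POLR2L (-2.91), POLR1H (-2.36), POLR2F (-2.18) and POLR2E (-2.11), all small polymerase subunits. POLR1H belongs to RNA polymerase I, and the others are shared between polymerases. UBTF, which binds the rDNA promoter, had 3344, 3365 and 3675 in chromatin and 6627, 6656 and 6946 in nucleoplasm, and was lower in chromatin by log2 fold change -0.96. RRN3, the initiation factor that joins polymerase to it, was lower as well, at -0.95. POLR1A, the largest subunit, had 5849, 5728 and 6082 against 6116, 6020 and 6039 and did not pass, at -0.04, a value that was 0.42 under equal library totals and -1.37 under the same ERCC total. TAF1D, a subunit of the promoter factor SL1 and host of several small nucleolar RNAs, was higher at 1.82. The median of the list was -0.88 and stayed below 0 under every scaling tried.

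Of 47 tested genes for precursor processing proteins, 0 were called in chromatin and 5 in nucleoplasm (again against 8.47% of all genes), with 5 higher in chromatin, 39 in nucleoplasm and 3 that passed in neither direction at any fold. NHP2 (-2.67), SNU13 (-2.46) and FBL (-2.08) encode core proteins of small nucleolar ribonucleoproteins. NCL, for nucleolin, was lower at -0.93. NOP56 (0.95), NOP58 (0.77) and WDR43 (0.97) were among those higher in chromatin, all by less than the shift of -1.31 that the same ERCC total gives to the median of all genes, and they were picked out after their values were seen. These are levels of messenger and precursor messenger RNA and say nothing of the proteins.

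The RNAs that act in processing went the other way. SNORD3A, the U3 RNA that guides the first cuts in the 5'ETS, had 133235, 135819 and 284474 in chromatin and 23561, 22878 and 23354 in nucleoplasm. It rose by 2.89 on the log2 scale (SE 0.26, adjusted p = 7.1e-06 in limma), and its call was lost under the same ERCC total. Chromatin replicate 3 was highest, and so it was for SNORD3B-1, another U3 gene, at 2.48 (SE 0.25). RMRP, the RNA of RNase MRP, which cuts in ITS1, had 773210, 582741 and 633696 against 329931, 392395 and 406492. It was higher by 0.81, and turned to -0.51 under the same ERCC total. These 3 were the ones tested of 12 listed, and U3 copies share reads. The 5S genes, made by RNA polymerase III outside the rDNA, were listed at 0 in 16 of 17 cases. RNA5S9 had 1.20 to 10.5 in chromatin and 7.75 to 32.5 in nucleoplasm and entered no test.

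Long reads placed rDNA transcripts among the most abundant in chromatin. The 90 rDNA transcripts summed to 36679 and 25937 TPM in the 2 libraries, or 3.67% and 2.59% of the total, and the 128 transcripts of other contigs to 1162 and 905 TPM. TPM is a share of the library scaled for transcript length, and keeps no depth. Of the 100 transcripts with the highest mean, 13 were from rDNA. Both libraries held 77 of the 90 rDNA transcripts above 0 and 108 of the 128 others. The median log2 ratio of replicate 2 to replicate 1 was -0.74 with an SD of 1.59 in rDNA and -0.43 with an SD of 1.22 on the other contigs, so single transcripts were known to within a few-fold at best.

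The unit start was marked sharply. On the plus strand 13 transcripts began within 10 bases of a unit start, 9 of them at its first base, and they fell at 6 of the 8 starts. They held 42.9% and 47.3% of rDNA TPM. Over both strands, 31 transcripts had their lower coordinate within 10 bases of a unit start, so minus-strand models stop at the same edge. The 200 bases around all 8 starts are the same, and which starts were active was not tested. MSTRG.48730.1 ran from the first base of RNA45SN2 to 360 bases past its end, over the GGTCGACC motifs shown above, at 2937 and 1469 TPM. MSTRG.82768.3 began 1 base before the partial copy on chrUn_GL000220v1 and ended inside ITS2, 979 bases before 28S, at 3028 and 2530 TPM, the highest mean of all rDNA transcripts.

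Many long models joined repeats. Over more than 1 unit ran 37 rDNA transcripts, with 53.5% and 55.6% of rDNA TPM. MSTRG.48730.17 (chr21:8389034-8446589), which joins RNA45SN3 to RNA45SN1, stood at 3052 and 2103 TPM. MSTRG.82768.2, over both units of chrUn_GL000220v1 from first to last base, stood at 2111 and 2632 TPM, and MSTRG.51392.2, from 424 bases into the first unit of chr22_KI270733v1_random to the end of the second, at 2973 and 2197 TPM. The 26 transcripts in intergenic spacers held 1.26% and 0.742%. The joined models were not tested for reads whose 2 ends matched different copies of the same sequence.

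The strand of long reads needs care, since direct cDNA carries no strand of its own and the sources used here do not state whether this table was made after strands were assigned. Minus-strand transcripts held 32.8% and 24.9% of rDNA TPM, against 0.0192% to 0.654% antisense counts in the directional short reads. Of the 38 minus-strand transcripts, 7 had the same start and end as a plus-strand transcript. Apart from those, 5 minus-strand spacer transcripts began, at the higher coordinate, 886 to 1193 bases upstream of 5 different unit starts and ran away from the unit. MSTRG.48736.1 (chr21:8247326-8249265) stood at 51.2 and 20.5 TPM, and together they had 229 and 100 TPM. Short reads held no member on that strand of the spacer.

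**Figure D5:**
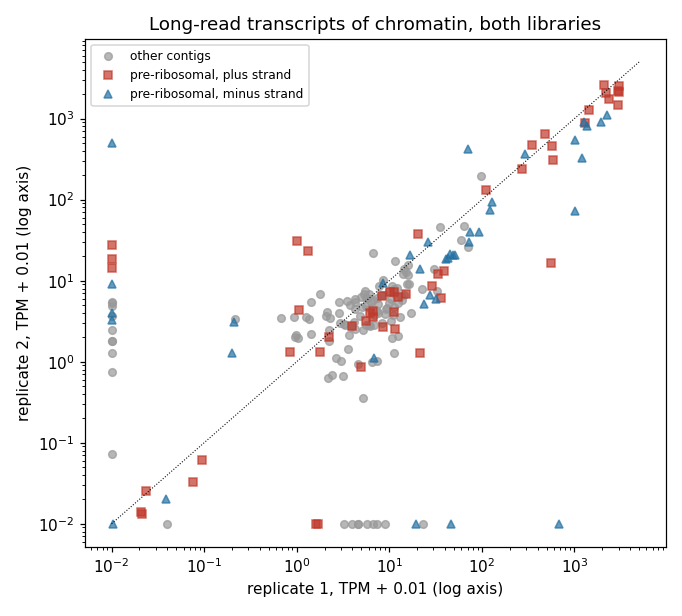
TPM plus 0.01 of each rDNA or contig transcript in the long-read chromatin libraries (replicate 1 on the horizontal axis, replicate 2 on the vertical, both log axes), with a dotted line of equality. The rDNA transcripts of both strands reach the highest levels, and points on the axes were above 0 in 1 library.

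On the other contigs the leading long-read transcript was MSTRG.15108.1 on chr11_KI270721v1_random (2648-11804), over the locus like MRPL23, at 97.2 and 195 TPM. It was followed by MSTRG.35165.1 and MSTRG.35166.1, on opposite strands of chr17_GL000205v2_random, at 64.8 and 47.6 TPM and at 70.9 and 26.2 TPM. MSTRG.82747.1 on chrUn_GL000195v1 (42624-86721) had 59.7 and 31.7 TPM and covers the border between the short-read loci MSTRG.34557 and MSTRG.34558. MSTRG.35165.4, also on chr17_GL000205v2_random, had 35.3 and 46.1 TPM. Of the 59 short-read contig loci, 25 (42.4%) overlapped a long-read transcript on the same strand, and 63 of the 128 long-read transcripts (49.2%) overlapped a short-read locus. Loci with an overlap had a median chromatin count of 834, and loci without one had 26.3. Among the 27 loci called in chromatin, 14 had a long-read transcript.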

How the data were processed

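RNA of 6 short-read and 2 long-read libraries was compared. Sample titles gave the group and the replicate number. For short reads, the authors aligned with HISAT2 2.1.0 (submitters' processing notes) to hg38 plus ERCC, assembled with StringTie, merged the assemblies of both fractions and deposited gene counts divided by DESeq2 size factors, a normalised signal. Dividing by the smallest value of each library gave whole numbers for 100% of values within 0.01. These are the raw counts used here, and intervals would cover counting error only. Nanopore reads were aligned by the authors with minimap2 and deposited as StringTie TPM, which hold no depth.

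Tested genes had normalised counts of 10 or more in 3 libraries and spanned over 200 bases. limma 3.58.1 (trend, log2(count + 1), which understates changes of low genes, Benjamini-Hochberg adjustment over all 26066 genes) compared the fractions. Alternatives included count tests of the recovered raw counts with edgeR 4.0.16 and with DESeq2 1.42.0. The steps were tested on simulated counts. The 45S units were found with blastn 2.17.0 from their sequence in hg38, and a locus got the part that makes up at least 80% of its bases inside a unit, bases outside units not counted. Contig loci were matched to placed sequence with minimap2 2.31-r1302. Names came from the GENCODE 44 gene set used here, which holds no gene on these contigs. A contig locus without a name can therefore still be a known gene. Promoter sequences came from RefSeq (GRCh38.p14).

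Single loci were named by rule: the 8 rDNA and 8 contig loci with the highest mean, the 5 contig loci with the largest called changes each way, list genes with the 4 largest called changes each way and a few fixed ones (UBTF, RRN3, POLR1A, NPM1, NCL, FBL, SNORD3A, SNORD118, RMRP), and the 5 highest long-read transcripts of each kind. NPM1 and SNORD118 matched no row, and 1 locus that the rule names is not reported here. The other rDNA loci were added to cover each part. Members and lists were chosen with earlier results of these data known. Whether cultures of the 2 methods were the same is not stated.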

Additional observations from a re-analysis of the deposited data

How the results depend on the processing

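Scaling mattered most. Under the same ERCC total per library, 14 contig loci were called in chromatin and 14 in nucleoplasm, 2 rDNA loci, 17 RNA polymerase I genes and 25 processing protein genes were called in nucleoplasm, and 0 nucleolar RNAs in chromatin, against 11.9% (chromatin) and 34.4% (nucleoplasm) of all genes. The median was then 0.56 for contig loci and -1.20 for rDNA loci, and the summed log2 ratio was 3.49 for 5'ETS, -1.91 for 5.8S, -2.02 for 28S, -1.07 for loci of several parts, -1.09 for all rDNA and -0.010 for other contigs. Single values that turned were MSTRG.22148 (-0.84), MSTRG.20996 (-1.21), MSTRG.34565 (-1.20), MSTRG.17887 (-0.94), MSTRG.34570 (-0.17) and RMRP (-0.51). Under equal library totals the contig median was 2.03, the contig sum 1.78, POLR1A 0.42, and 1 RNA polymerase I gene was called in each fraction and 2 processing genes in nucleoplasm. Equal totals without rDNA, chosen after seeing the data, gave 2.06, 1.81, 0.45, 1 in each and 1. Of all genes, 25.6% (chromatin) and 3.83% (nucleoplasm) were called under equal totals, and 25.9% and 3.52% under equal totals without rDNA. DESeq2 gave 0.051 for POLR1A and 2 processing genes in nucleoplasm, against 7.52% of all genes. Leaving out the U1 copy, also chosen after seeing the data, gave a contig sum of 2.72. A mean of at least 50 left 15 contig calls, 1 rDNA call and a contig median of 2.11. Without a span minimum 5 rDNA loci and 4 nucleolar RNAs were called. A fold minimum of 2 called 10 contig loci, 8 RNA polymerase I and 17 processing genes in nucleoplasm and 1 RNA polymerase I gene in chromatin. The share of all genes at that minimum is not given here, so those counts cannot be set against it. For none of these alternatives was the cause of a change tested, beyond the smaller or larger number of genes tested.

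Leaving out each library in turn gave 0 to 1 contig calls in nucleoplasm (1 without chromatin replicate 1 or nucleoplasm replicate 2), a contig median of 1.58 to 1.91, and ranges of -0.094 to 0.83 for MSTRG.22148, -0.50 to 0.42 for MSTRG.20996 and -0.46 to 0.43 for MSTRG.34565, all lowest without chromatin replicate 1. Same-numbered libraries did not count as pairs, since the correlations of their deviations were 0.087, 0.053 and 0.063, although each library correlated best with its own number. With the replicate number as a block, 5540 and 2218 genes were called in chromatin and nucleoplasm, against 5531 and 2208, and the only named locus to change its side of the adjusted p was MSTRG.22148, at 0.48 (adjusted p = 0.019 in limma), still short of the fold minimum. Of 503 alternatives over 28 named genes, 487 kept direction and side of the threshold. Values of spacer and antisense loci with very low raw counts are limited by depth.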
